A study of Homo sapiens with 12 samples.

Results

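Transcript levels of 37 genes that encode lysosomal enzymes, lysosomal membrane proteins and the receptors that deliver them were followed in 2 cancer cell lines incubated with a seaweed extract. The genes were taken by name from the count tables, which list 57736 genes in all, and each of the 37 names was found. Under this choice fall 5 membrane proteins, 2 mannose 6-phosphate receptors, 7 proteases, 11 glycosidases, 5 sulfatases, 6 proteins that handle lipids and 1 acid phosphatase.

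Lysosomes are acidic organelles in which hydrolases break down proteins, glycans, glycolipids and other lipids brought in by endocytosis and autophagy. Most soluble lysosomal enzymes receive a mannose 6-phosphate tag in the Golgi apparatus, are bound there by the receptors M6PR and IGF2R and are released in endosomes, while the heavily glycosylated LAMP proteins line the inner face of the lysosomal membrane. Many of these genes carry an E-box of the CLEAR type in their promoters, which TFEB, TFE3 and related factors bind when they leave the lysosomal surface for the nucleus. Inherited loss of most of the enzymes causes lysosomal storage disease.

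HepG2 cells, a line from a human hepatocellular carcinoma, and Ls174 cells, a line from a human colon cancer, both of wild-type genotype, were left without treatment or were cultured with 0.7 mg/ml of *Hypnea musciformis* extract (HME) for 24 h, a dose that the labels describe as the half-maximal inhibitory concentration. The methods of the study give a slightly higher dose than the labels. HME is a methanol extract of a red macroalga and therefore a mixture, and each tissue is represented by 1 cell line. Each of the 4 groups (HepG2 control, HepG2 HME, Ls174 control and Ls174 HME) had 3 biological replicates, giving 12 libraries. In the 3′ mRNA method used here a transcript is read at its polyadenylated end, so that counts of different genes can be compared without a correction for transcript length.

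The libraries held between 1790841 and 3656662 counts, and 3 counts were taken as the upper limit that a count of 0 allows, which covers counting error only. HepG2 control 2 and Ls174 control 1 stood apart from the other controls of their lines, and the main counts of called genes are given with and without each of them. HepG2 HME 2 also stood apart. In it, 8 mesenchymal marker genes summed to 1070 normalized counts (CPM, counts scaled to a common library size). They summed to 48.0 and 52.5 CPM in the other HepG2 HME libraries and 27.9 to 87.1 CPM in the HepG2 controls. Of the 8 genes, 4 had more than 3 counts over the HepG2 controls and 7 over the HepG2 HME libraries. *LUM* and *THY1* were at 0 in the HepG2 controls but not in the HepG2 HME libraries, and *DCN* was at 0 in both. Liver markers summed to 15100 to 19000 CPM in HepG2 controls, 10700 to 12100 CPM in HepG2 HME cells and 23.0 to 170 CPM in Ls174 controls. Colon markers summed to 395 to 473 CPM in Ls174 controls, 69.4 to 207 CPM in HepG2 controls and 112 to 138 CPM in HepG2 HME cells. Of the 8 colon markers, 4 had more than 3 counts in each HepG2 group, and *CEACAM5* and *MUC2* were at 0 in HepG2 cells. Macrophage and blood markers, which matter here because macrophages are rich in lysosomes, summed to at most 5.9 CPM in any library, with *PTPRC* and *CD163* at 0 in all of them. Endothelial markers reached at most 4.33 CPM.

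In untreated cells, lysosomal genes were measured at widely different levels. Of the 37 genes, 36 had counts in HepG2 cells and all 37 in Ls174 cells. The highest means in HepG2 controls were those of *PSAP* (821 ± 118 CPM, SD, n = 3), which encodes the precursor of the saposins that help hydrolases reach glycolipids, *LAMP1* (693 ± 293) and *CD63* (662 ± 104), a tetraspanin of late endosomes and lysosomes. In Ls174 controls *CD63* led (737 ± 205), ahead of *LAMP1* (522 ± 66.5) and *PSAP* (474 ± 108), and within each line the libraries' values of these 3 genes overlapped. The lowest level was that of *IDUA*, which encodes alpha-L-iduronidase, at 0 to 2.16 CPM in any library, too low to be tested. The summed level of the 37 genes was 4999, 6175 and 5542 CPM in the HepG2 controls and 3177, 3697 and 3786 CPM in the Ls174 controls, so that the 2 lines did not overlap.

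**Figure D1:**
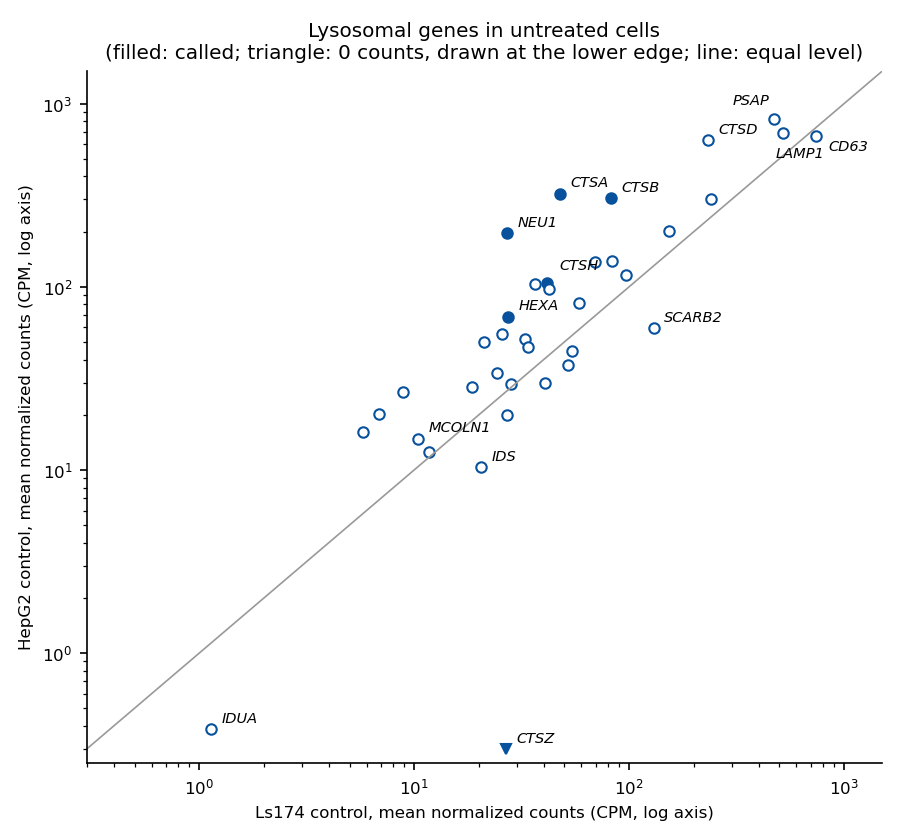
Mean normalized counts (CPM, log axes) of the 37 lysosomal genes in Ls174 controls (x) and HepG2 controls (y), 3 libraries per group, with the line of equal level; filled symbols passed both limits (adjusted p 0.05 and log2 difference 0.58). *NEU1*, *CTSA*, *CTSB*, *CTSH* and *HEXA* lie above the line, and *CTSZ* lies at 26.8 CPM in Ls174 cells with 0 counts in HepG2 cells.

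The comparison of untreated HepG2 with untreated Ls174 cells asked which lysosomal genes distinguish the lines before treatment. It was made by edgeR's quasi-likelihood test on 6 libraries, with genes called at a Benjamini-Hochberg adjusted p, over all tested genes, of less than 0.05 with a log2 difference beyond 0.58. Of the 36 genes tested, 5 (13.9%) were higher in HepG2 cells and 1 was higher in Ls174 cells, while 14.2% of all tested genes were called higher in HepG2 and 9.33% lower in HepG2, so the share called higher was close to that of all genes. The median log2 difference, HepG2 over Ls174, was 0.60 over the lysosomal genes and 0.04 over all genes, and 28 of the 36 values lay above 0.

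Of the glycosidases, *NEU1*, the lysosomal sialidase, was measured at 247, 147 and 193 CPM in HepG2 controls and 22.0, 28.1 and 31.0 CPM in Ls174 controls. The groups were far apart, with a log2 difference of 2.88 ± 0.35 (SE) and an adjusted p of 0.000472. *CTSA*, which encodes the protective protein that holds NEU1 and beta-galactosidase together in a complex, was measured at 241, 344 and 380 CPM in HepG2 and 71.8, 34.6 and 37.2 CPM in Ls174 controls. Its difference was 2.79 ± 0.42 (adjusted p = 0.00133). *GLB1*, which encodes the beta-galactosidase of the same complex, was not called, at 81.3 ± 16.5 CPM in HepG2 and 58.5 ± 18.1 CPM in Ls174 controls.

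The cysteine protease gene *CTSB* was measured at 308, 276 and 329 CPM in HepG2 and 61.1, 95.0 and 91.6 CPM in Ls174 controls, a difference of 1.91 ± 0.33 (adjusted p = 0.00262). *CTSH*, an aminopeptidase of the same family, was measured at 100, 91.0 and 123 CPM in HepG2 and 40.6, 43.8 and 40.2 CPM in Ls174 controls. It differed by 1.37 ± 0.30 (adjusted p = 0.00969). *HEXA*, the alpha subunit of beta-hexosaminidase, was measured at 77.0, 50.2 and 79.1 CPM in HepG2 and 15.6, 33.3 and 32.8 CPM in Ls174 controls. Its difference was 1.35 ± 0.39 (adjusted p = 0.0335). Libraries of the 2 lines did not overlap for either gene, but *HEXA* was called in 1 of 6 fits that left out 1 library, with adjusted p up to 0.101, and *CTSH* in 4 of 6, all but those without Ls174 control 2 or 3. Without Ls174 control 1, 8 genes were higher in HepG2 and 1 in Ls174 cells, against 15.4% and 10.8% of all genes, *HEXA* was no longer called (1.08, adjusted p = 0.0573), and *ACP2*, *ARSA*, *NAGLU* and *SMPD1* were added. Without HepG2 control 2, 9 genes were higher in HepG2 and 1 in Ls174 cells, against 14.8% and 10.1%, with *ARSB*, *IGF2R*, *LAMP2* and *LIPA* added. *NEU1*, *CTSA*, *CTSB* and *CTSZ* were called in all 6 fits.

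*CTSZ*, which encodes the carboxypeptidase cathepsin Z, separated the lines most sharply. It had 0 counts in the 3 HepG2 controls and in the 3 HepG2 HME libraries. In Ls174 cells it was measured at 36.7, 19.7 and 23.9 CPM without HME and at 17, 17.7 and 13.4 CPM with it. Against the floor of 3 counts in the HepG2 control library where that floor is highest (1.86 CPM), *CTSZ* was at least 14.4-fold higher in untreated Ls174 cells. Of related cysteine protease genes outside the 37, *CTSL* had the opposite pattern, at 52.5 ± 16.7 CPM in HepG2 controls and with no count in Ls174 cells, while *CTSF* was at 21.7 ± 5.63 CPM in Ls174 controls and 0.134 ± 0.23 CPM in HepG2 controls. These 2 genes were noted after its values were seen.

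In Ls174 cells many lysosomal genes were lower after 24 h with HME, led by *TPP1* and *LAMP1*, and none of those tested was called higher. The comparison asked how the extract changed lysosomal transcripts within this line. Genes were called differentially expressed (DE), here and in HepG2 cells, when they met the limits set in the study's methods, that is p under 0.05 before adjustment with a log2 fold change of more than 0.58 up or down. The p-values printed are those adjusted over all genes (Benjamini-Hochberg), so a called gene may carry an adjusted p above 0.05. Of 36 genes tested (*IDUA* did not pass the filter on low counts), 16 (44.4%) fell and 0 rose, while 7.85% of all tested genes were called lower and 4.11% higher. None of the 36 was called higher by DESeq2 either. The log2 fold change was below 0 for 32 of the 36 genes, with a median of -0.51 against -0.00287 over all genes. For 16 genes (44.4%) the 3 HME libraries all lay below the 3 controls, and for 0 genes above, against 12.3% and 11.5% of all genes. With adjusted p under 0.05, as for 1.18% of all genes, 2 genes fell, *TPP1* and *LAMP1*. In such bulk samples a change in the share of cells of one kind and a change in RNA per cell cannot be told apart.

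**Figure D2:**
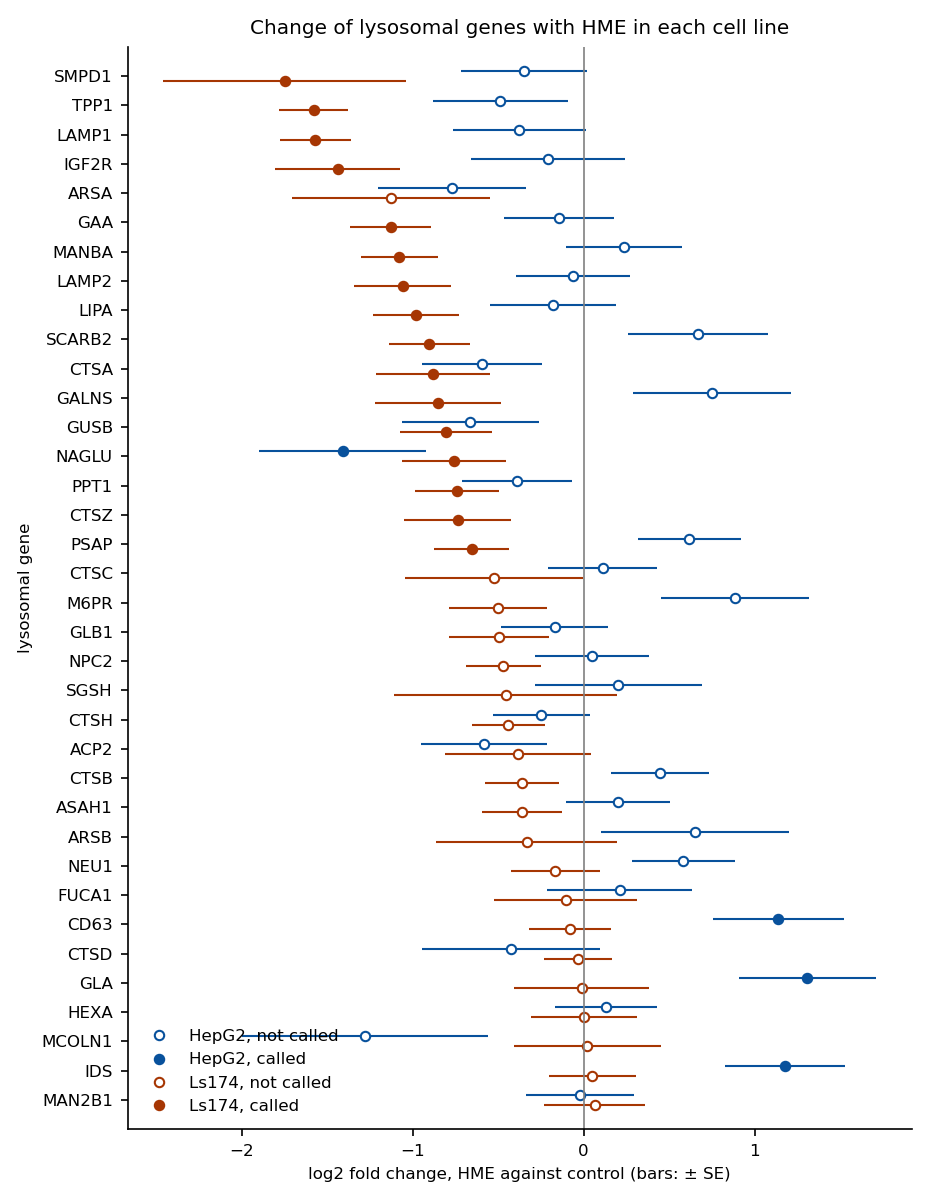
Log2 fold change with HME (x, bars ± SE, 3 against 3 libraries) of each lysosomal gene tested (y), in HepG2 (blue) and Ls174 cells (brown), with filled symbols for called genes. In Ls174 cells 16 filled symbols lie below 0, and in HepG2 cells 3 lie above 0 and 1 below.

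Among the membrane proteins, 3 of 5 fell in Ls174 cells. *LAMP1*, which encodes a major glycoprotein of the lysosomal membrane, was measured at 584, 531 and 451 CPM in the controls and at 203, 157 and 171 CPM with HME. Every HME library was below every control, and the level fell to 0.338 of the control level (log2 fold change -1.57 ± 0.21, adjusted p = 0.0255). *LAMP2*, its paralogue, was measured at 63.5, 78.7 and 65.4 CPM without HME and 46.4, 31.8 and 21.9 CPM with it (-1.06 ± 0.28, adjusted p = 0.144). *SCARB2*, which encodes LIMP-2, the carrier of glucocerebrosidase to lysosomes, was measured at 90.4, 159 and 140 CPM without HME and at 68.8, 75.3 and 65.0 CPM with it (-0.91 ± 0.24, adjusted p = 0.137). In both of these genes the HME libraries lay below all controls. *CD63* was not called, at 535, 733 and 944 CPM against 780, 670 and 651 CPM (-0.08 ± 0.24), and neither was the calcium channel gene *MCOLN1* (0.02 ± 0.43).

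Of the mannose 6-phosphate receptors, *IGF2R*, the larger and cation-independent one, fell. Its levels were 22.5, 23.4 and 31.3 CPM in the controls and 14.5, 6.01 and 8.16 CPM with HME, without overlap (-1.44 ± 0.36, adjusted p = 0.125). *M6PR*, the smaller, cation-dependent one, was measured at 27.4, 23.8 and 30.3 CPM against 13.8, 18.7 and 25.1 CPM, with overlapping groups, and was not called (-0.50 ± 0.29, adjusted p = 0.482).

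Of the 7 proteases, 3 fell and the other 4 had log2 fold changes between -0.52 and -0.03. *TPP1*, which encodes tripeptidyl peptidase 1, had the lowest p of the 36 genes tested, with 92.4, 85.2 and 70.7 CPM in the controls and 28.2, 26.5 and 28.4 CPM with HME. The HME libraries were close to each other and far below the controls (-1.58 ± 0.20, adjusted p = 0.0249). *CTSA* (-0.88 ± 0.33, adjusted p = 0.308) and *CTSZ* (-0.74 ± 0.31, adjusted p = 0.355) fell with less margin. *CTSD*, which encodes the aspartic protease cathepsin D, the most abundant of the protease genes in this line, was at 233 ± 28.8 CPM without HME and 229 ± 34.3 CPM with it (-0.03 ± 0.20).

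Of the 10 glycosidases tested, 4 fell. *MANBA*, which encodes beta-mannosidase, was measured at 33.2, 45.0 and 43.5 CPM in controls and 19.9, 20.1 and 18.0 CPM with HME (-1.08 ± 0.23, adjusted p = 0.073). *GAA*, which encodes the acid alpha-glucosidase that degrades glycogen, was measured at 35.7, 32.4 and 30.3 CPM against 13.8, 17 and 14.4 CPM (-1.13 ± 0.24, adjusted p = 0.074). Both genes were lower in each HME library than in any control. The beta-glucuronidase gene *GUSB* (-0.81 ± 0.27, adjusted p = 0.248) and *NAGLU* (-0.76 ± 0.31, adjusted p = 0.337), an enzyme of heparan sulfate breakdown, also fell. *GLA*, *HEXA*, *NEU1*, *MAN2B1*, *FUCA1* and *GLB1* were not called.

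Of the 5 sulfatases only *GALNS*, which acts on keratan sulfate, fell (-0.85 ± 0.37, adjusted p = 0.367), from 11.7 ± 1.54 to 6.51 ± 1.82 CPM, and *ARSA* (-1.13 ± 0.58, adjusted p = 0.431), *ARSB*, *IDS* and *SGSH* were not called. Of the 6 genes for lipid-handling proteins, 4 fell. *LIPA*, the acid lipase that releases cholesterol from its esters, was measured at 37.1, 51.5 and 38.4 CPM in the controls and 26.4, 17.7 and 20.6 CPM with HME, without overlap (-0.98 ± 0.25, adjusted p = 0.133). *PSAP* fell from 474 ± 108 to 302 ± 16.3 CPM (-0.66 ± 0.22, adjusted p = 0.24), and the palmitoyl-protein thioesterase gene *PPT1* from 154 ± 40.3 to 92.4 ± 14.2 CPM (-0.74 ± 0.25, adjusted p = 0.241). The sphingomyelinase gene *SMPD1* was called (-1.75 ± 0.71, adjusted p = 0.342), but its groups overlapped, since control 1 was at 40.1 CPM and controls 2 and 3 at 8.02 and 7.38 CPM, against 4.35, 4.24 and 7.51 CPM with HME. *NPC2*, a cholesterol carrier, *ASAH1*, the acid ceramidase, and the acid phosphatase gene *ACP2* were not called.

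**Figure D3:**
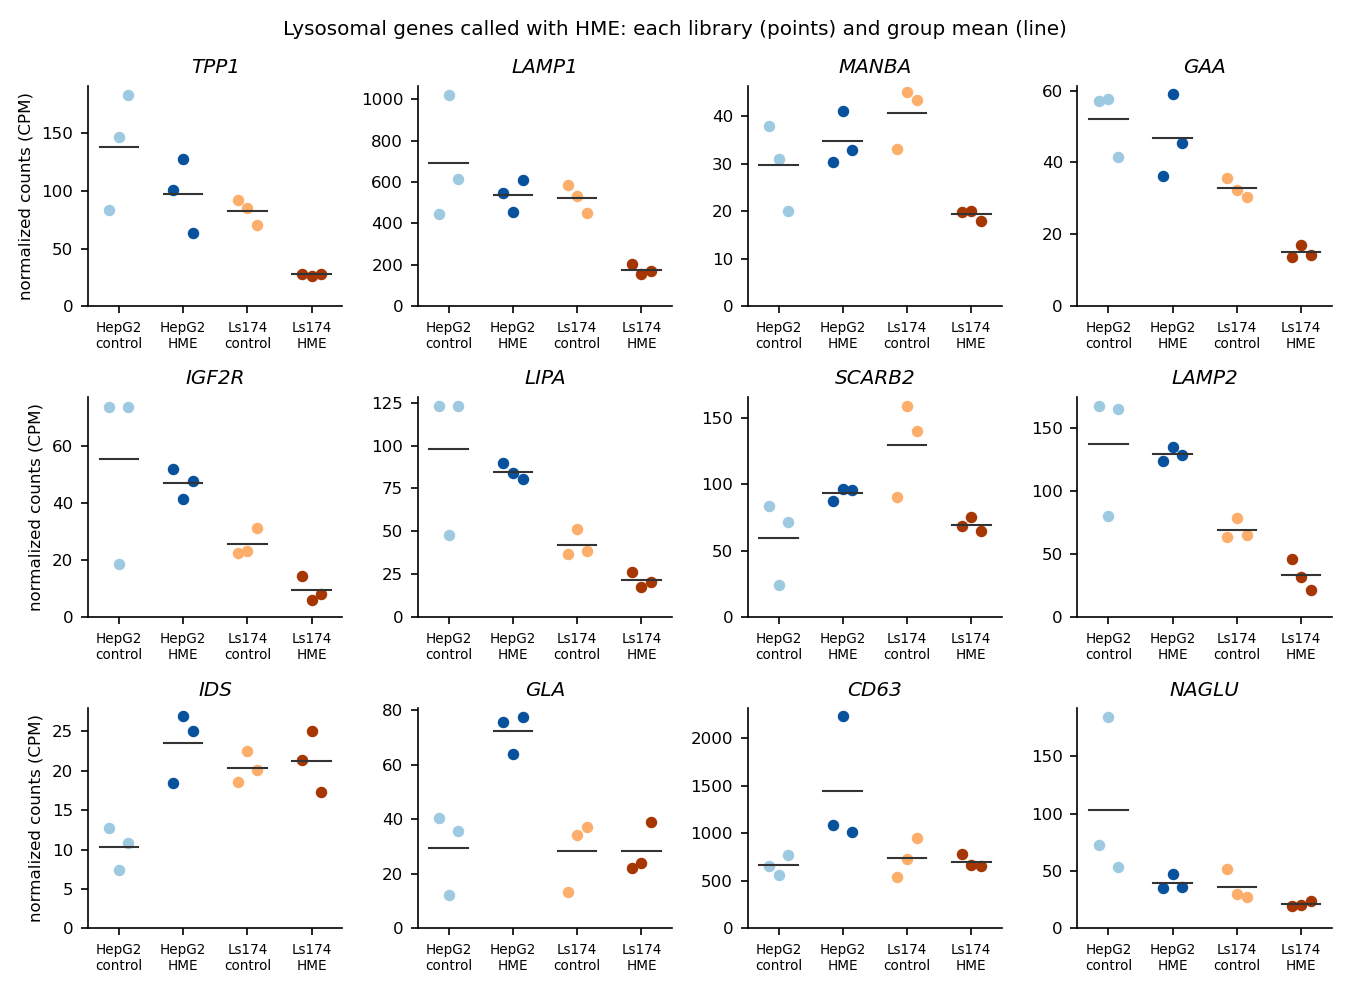
Normalized counts (CPM, y, from 0) in every library of the 8 genes with the lowest p in Ls174 cells and the 4 genes called in HepG2 cells, by group (x); points are libraries and lines are means of 3. In Ls174 cells *TPP1* lies between 70.7 and 92.4 CPM in controls and between 26.5 and 28.4 CPM with HME, and in HepG2 cells *CD63* reaches 2230 CPM in HME 2 alone.

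The 8 genes with the lowest p in Ls174 cells, *TPP1*, *LAMP1*, *MANBA*, *GAA*, *IGF2R*, *LIPA*, *SCARB2* and *LAMP2*, were each called in all 6 fits that left out 1 library. Of the other called genes, *GUSB* was kept in 4 of these 6 fits and *PPT1* and *SMPD1* in 3. *PSAP*, *GALNS*, *CTSA* and *NAGLU* were kept in 2 and *CTSZ* in 1. Without control 1, the library that stood apart, 14 genes fell and 0 rose, against 9.23% of all genes called lower and 6.4% higher. Of these 14 genes, 11 were called with all libraries too, *PPT1*, *CTSA*, *NAGLU*, *SMPD1* and *CTSZ* were no longer called, and *CTSC*, *GLB1* and *SGSH* were added. Without that control 11 genes had an adjusted p under 0.05, as had 8.39% of all genes, while with any other single library left out 0 genes had one, as had between 0 and 10 of all genes tested. *CTSC*, which encodes the dipeptidyl peptidase that activates granule proteases, was at 12.2 CPM in control 1 and at 71.0 and 73.3 CPM in controls 2 and 3. With HME it was at 35.1, 32.5 and 42.5 CPM, so that its log2 fold change was -0.52 ± 0.52 with all libraries and -0.97 ± 0.17 without control 1.

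In HepG2 cells, the same question gave a mixed answer, with few lysosomal genes called. Of 35 genes tested (*IDUA* and *CTSZ* did not pass the filter), 3 (8.57%) rose and 1 (2.86%) fell, while 11.3% of all tested genes were called higher and 10.9% lower. The log2 fold change was below 0 for 18 genes and above 0 for 17, with a median of -0.02 against -0.04 over all genes. By edgeR, 0 genes had an adjusted p under 0.05, as had 3.31% of all genes, 4 had an unadjusted p under 0.05, and DESeq2 gave 1 gene with an adjusted p under 0.05, *GLA*, as it did for 9.11% of all genes. DESeq2 called 4 genes higher, the same 3 and *PSAP*, and 1 lower, against 11.1% and 11.7% of all genes. The 3 HME libraries lay above the 3 controls for 7 genes (20%) and below them for 3 (8.57%), against 16.6% and 14.2% of all genes. The call of higher or lower over all genes depended on the scaling, since 1282 genes were called higher and 1235 lower with TMM factors, but 861 and 1729 when libraries were scaled by their totals, which moved the median of all genes from -0.04 to -0.20. The 4 lysosomal genes called were the same under both.

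*IDS*, which encodes the iduronate 2-sulfatase of dermatan and heparan sulfate breakdown, was measured at 12.8, 7.43 and 10.8 CPM in the HepG2 controls and 18.5, 27.0 and 25.1 CPM with HME. The groups did not overlap, and the gene rose by 1.18 ± 0.35 (log2, adjusted p = 0.0955). Its reads came from several regions, and in the most used one alone the change was not called (1.05 ± 0.54, adjusted p = 0.29). A second gene of the same name lies within the first, its counts were not added, and reads of the 2 may not be separable. *GLA*, which encodes the alpha-galactosidase A that removes galactose from globotriaosylceramide, was measured at 40.4, 12.4 and 35.7 CPM without HME and at 75.9, 63.9 and 77.6 CPM with it. It rose to 2.48 times the control level (1.31 ± 0.40, adjusted p = 0.104) with all HME libraries above all controls. In Ls174 cells *GLA* and *IDS* were not called, with log2 fold changes of -0.01 ± 0.39 and 0.05 ± 0.26.

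*CD63* was measured at 657, 561 and 768 CPM in the HepG2 controls and at 1090, 2230 and 1010 CPM with HME. It rose by 1.14 ± 0.39 (log2, adjusted p = 0.129) without overlap, and its highest value was in HME 2, the library with the mesenchymal markers. Without that library the change was 0.70 ± 0.39 (adjusted p = 0.42) and was not called. *M6PR* had the same pattern, with 22.4, 14.9 and 22.5 CPM in controls and 26.0, 61.8 and 21.5 CPM with HME, and its change was 0.89 ± 0.43 (adjusted p = 0.26) with HME 2 and 0.28 ± 0.41 (adjusted p = 0.771) without it. The part of the mesenchymal markers in these values was not tested.

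*NAGLU* was the 1 lysosomal gene that fell in HepG2 cells. It was measured at 73.0, 184 and 53.4 CPM in the controls and 35.4, 47.1 and 35.8 CPM with HME, without overlap (-1.41 ± 0.49, adjusted p = 0.138). The highest value was in control 2, the control that stood apart, and without it the change was -0.61 ± 0.26 (adjusted p = 0.18). The call was kept in 4 of 6 fits that left out 1 library and was lost without HME 1 and without HME 3, each of which left 0 lysosomal genes called lower.

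The other genes of HepG2 cells did not pass the thresholds in this edgeR fit. *PSAP*, which DESeq2 and 1 edgeR fit of all 12 libraries called higher, was measured at 786, 724 and 953 CPM in controls and 1290, 1370 and 1090 CPM with HME, without overlap (0.62 ± 0.30, adjusted p = 0.258). *NEU1* (0.58 ± 0.30, adjusted p = 0.284), *SCARB2* (0.67 ± 0.41, adjusted p = 0.362) and *CTSB* (0.45 ± 0.29, adjusted p = 0.383) were likewise higher in each HME library than in any control, and *ARSA* and *CTSH* lower. *LAMP1* was at 447, 1020 and 614 CPM without HME and 547, 456 and 611 CPM with it (-0.38 ± 0.39), and *TPP1* at 83.6, 147 and 183 CPM against 101, 128 and 63.3 CPM (-0.49 ± 0.40). In both of these genes the groups overlapped.

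Without HepG2 control 2, 4 genes rose (*CD63*, *GLA*, *IDS* and *PSAP*) and 2 fell (*NAGLU* and *IGF2R*), against 14.1% of all genes higher and 10.1% lower. *GLA* then had an adjusted p of 0.0364 (0.99 ± 0.24), and 7.74% of all genes had an adjusted p under 0.05. Without HepG2 HME 2, 2 genes rose (*GLA* and *IDS*) and 1 fell (*NAGLU*), against 8.34% higher and 6.81% lower, and 0 of the genes tested had an adjusted p under 0.05, against 1.21% of all genes.

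The summed level over the 37 genes followed the difference between the lines. It was 4999, 6175 and 5542 CPM in HepG2 controls and 6073, 7314 and 6028 CPM in HepG2 HME cells, with overlap, and 3177, 3697 and 3786 CPM in Ls174 controls against 2705, 2285 and 2357 CPM with HME, without overlap. *CD63*, *PSAP* and *LAMP1* took much of these sums. In Ls174 cells the mean of *LAMP1* went from 522 to 177 CPM with HME and that of *CD63* from 737 to 700 CPM. A sum without *LAMP1* was not made. Without *CD63* the sums were 4342, 5614 and 4774 CPM against 4987, 5079 and 5021 CPM in HepG2 cells, and 2642, 2964 and 2841 CPM against 1925, 1615 and 1706 CPM in Ls174 cells.

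**Figure D4:**
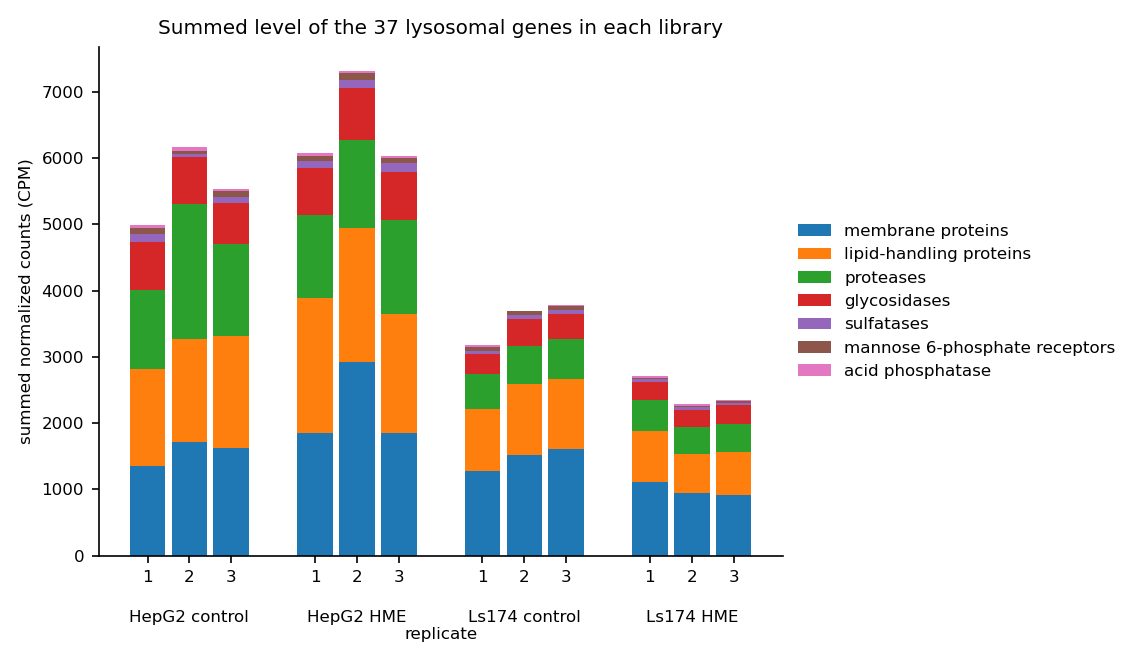
Summed normalized counts (CPM, y, from 0) of the 37 lysosomal genes in each of the 12 libraries (x), stacked by the role of the encoded protein. The Ls174 HME libraries sum to 2285 to 2705 CPM, below the Ls174 controls at 3177 to 3786 CPM, while the HepG2 groups overlap.

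Whether HME changed lysosomal genes differently in the 2 lines was asked with an interaction term for line and treatment in 1 fit of all 12 libraries. Values are the log2 fold change in HepG2 minus that in Ls174 cells. Of 35 genes for which it could be estimated (*IDUA* was too low and *CTSZ* had no count in HepG2), 30 had values above 0, with a median of 0.72 against -0.04 over all genes. At an unadjusted p under 0.05, 11 genes (31.4%) had the higher log2 fold change in HepG2 and 0 in Ls174 cells, while 7.42% and 5.75% of all genes did. DESeq2 gave 14 and 0, against 8.27% and 6.4%. By edgeR 0 genes passed an adjusted p under 0.05, as 0.644% of all genes did, and by DESeq2 1 did, *PSAP*, as 2.91% of all genes did. Scaling by library totals turned the balance over all genes, from 968 against 750 to 780 against 904, and left 9 of the 11 lysosomal genes and 0 in the other direction.

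*PSAP* had the lowest p of the interaction (1.26 ± 0.38, adjusted p = 0.163), and it was higher in each HME library in HepG2 and lower in each in Ls174 cells. *MANBA* (1.30 ± 0.41, adjusted p = 0.188), *SCARB2* (1.53 ± 0.52, adjusted p = 0.217) and *LAMP1* (1.19 ± 0.44, adjusted p = 0.242) followed. *GAA*, *IDS*, *GALNS*, *CD63*, *M6PR*, *TPP1* and *CTSB* made up the rest, with values between 0.79 and 1.56 and adjusted p values between 0.29 and 0.345. Without HepG2 HME 2, 6 genes remained (*CTSB*, *GALNS*, *LAMP1*, *MANBA*, *PSAP* and *SCARB2*), against 6.1% of all genes higher in HepG2 and 5.23% in Ls174 cells. Without HepG2 control 2, 11 genes passed, with *M6PR* lost and *NPC2* added, against 7.81% and 6.25%. Without Ls174 control 1, 13 passed, with *TPP1* lost and *CTSC*, *GLA* and *NEU1* added, against 8.83% and 7.2%. In each of these 3 fits 0 genes were higher in Ls174 cells.

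The reads of most lysosomal genes came from 1 place. For 27 of the 37 genes more than 90% of counts lay in 1 region, 10 genes had at least 2 regions with 10% or more of their counts, and in 36 genes more than 50% of the most used region was annotated as 3′ UTR (GENCODE v44 lifted to GRCh37). *LAMP2* is the gene whose proteins differ by the end used, since alternative last exons give the membrane-spanning and cytosolic tails of LAMP-2A, the receptor of chaperone-mediated autophagy, and of LAMP-2B. Its counts were shared between the LAMP-2A end (GRCh37 chrX:119564484-119565317, minus strand, all of it 3′ UTR) with 51.7% and the LAMP-2B end (chrX:119570152-119573008, minus strand, 93.1% of it 3′ UTR) with 47.9%.

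In Ls174 cells the LAMP-2B end was measured at 24.9, 48.7 and 38.9 CPM without HME and at 15.9, 12 and 11.1 CPM with it. The LAMP-2A end was measured at 38.6, 28.7 and 26.5 CPM without HME and 30.4, 19.1 and 10.8 CPM with it. The groups did not overlap at the LAMP-2B end and overlapped at the LAMP-2A end, and in the test restricted to the most used region of each gene, which for *LAMP2* is the LAMP-2A end, *LAMP2* was not called (-0.62 ± 0.37, adjusted p = 0.503). In HepG2 cells the LAMP-2B end was at 69.8 ± 14.4 CPM without HME and 56.3 ± 9.12 CPM with it, and the LAMP-2A end at 67.0 ± 34.9 and 72.8 ± 6.81 CPM. A difference between the ends was not tested.

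**Figure D5:**
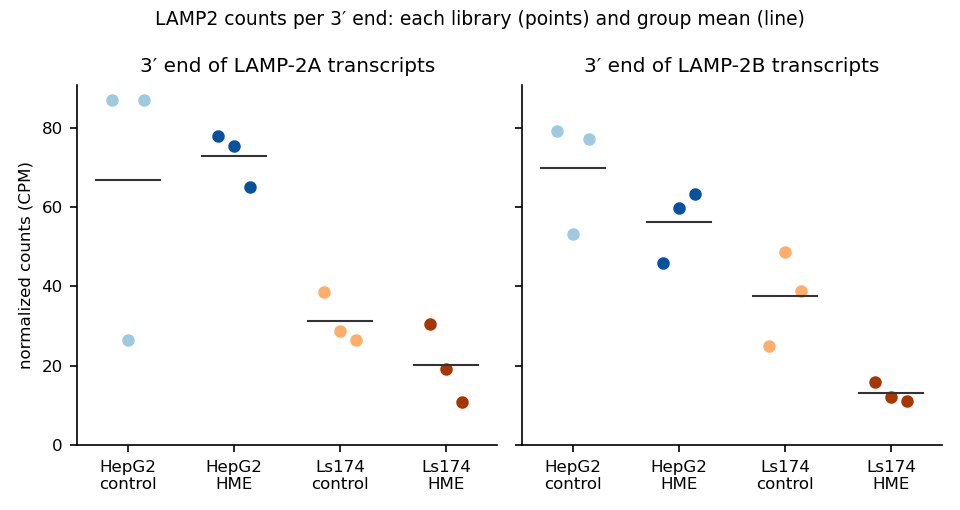
Normalized counts (CPM, y, from 0) at both 3′ ends of *LAMP2* in every library, by group (x); points are libraries and lines are means of 3. In Ls174 cells the LAMP-2B end lies at 24.9 to 48.7 CPM in controls and 11.1 to 15.9 CPM with HME, while the LAMP-2A groups overlap.

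Promoters were searched for the E-box TCACGTGA, the core of the CLEAR element, which reads the same on both strands, because it is the sequence that lysosomal genes are known to share. RefSeq promoters (GRCh38.p14, 250 bases before to 50 after the start) were at hand for 28 of the 37 genes, and 6 of them (21.4%) held it, namely *CTSA*, *GAA*, *GALNS*, *IGF2R*, *LAMP1* and *MCOLN1*, against 1.18% of 27305 genes. The shorter E-box CACGTG, which every TCACGTGA contains, was in 11 of the 28 genes (39.3%) and in 8.77% of all genes. The copy nearest to the start of each of the 6 genes is shown in 30 bases of the gene's strand, with the E-box in capitals, and these lie at chr13:113297226-113297255 (plus strand, *LAMP1*), chr6:159969042-159969071 (plus, *IGF2R*), chr17:80101538-80101567 (plus, *GAA*), chr20:45891298-45891327 (plus, *CTSA*), chr16:88857104-88857133 (minus, *GALNS*) and chr19:7522598-7522627 (plus, *MCOLN1*).
LAMP1: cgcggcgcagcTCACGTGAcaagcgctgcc
IGF2R: ccgggcggctgTCACGTGAcgcggttccgg
GAA: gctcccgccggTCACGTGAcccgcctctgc
CTSA: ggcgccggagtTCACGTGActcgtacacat
GALNS: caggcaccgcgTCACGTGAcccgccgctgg
MCOLN1: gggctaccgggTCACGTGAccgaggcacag

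The E-box began 2 bases before the start in *LAMP1*, 29 in *IGF2R*, 32 in *GAA*, 26 in *CTSA*, 175 in *GALNS* and 15 in *MCOLN1*. *IGF2R*, *LAMP1*, *GAA* and *MCOLN1* carried more than 1 copy. In Ls174 cells *LAMP1*, *IGF2R*, *GAA*, *CTSA* and *GALNS* fell and *MCOLN1* was not called. Beside them, 44.4% of the lysosomal genes tested and 7.85% of all genes fell in this line. The median log2 fold change was -1.0 over the genes with the E-box and -0.47 over those without it. In HepG2 cells none of the 6 was called, where 8.57% of the lysosomal genes tested rose and 2.86% fell, with medians of -0.29 and 0.01. For the shorter E-box no such gap was seen, with medians of -0.50 with it and -0.51 without it in Ls174 cells and -0.14 and -0.17 in HepG2 cells. These values describe few genes and were not tested, and changes of the other human genes that carry the E-box were not compared.

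Genes of the wider lysosomal system were counted from 5 further lists. In Ls174 cells 18 of the 120 genes tested fell and 1 rose, and in HepG2 cells 11 of 117 fell and 10 rose. Of all genes, 7.85% fell and 4.11% rose in Ls174 cells and 10.9% and 11.3% in HepG2 cells, so that the HepG2 counts were close to or below those of all genes. Without Ls174 control 1, 22 of 121 fell and 1 rose, against 9.23% and 6.4% of all genes. *LMBRD1* and *ATP6V1D*, named next, were then not called. Without HepG2 control 2, 10 of 119 fell and 14 rose, against 10.1% and 14.1% of all genes, and *AP1M2*, *TPCN2*, *TCIRG1* and *VPS33A* were not called. Without HepG2 HME 2, 5 of 118 fell and 5 rose, against 6.81% and 8.34% of all genes. In that fit *AP1S1*, *TPCN2*, *VPS33A* and the V-ATPase subunits were not called. The medians of the log2 fold changes in the 5 lists lay between -0.37 and 0.02 in Ls174 cells and between -0.27 and 0.06 in HepG2 cells, beside -0.00287 and -0.04 over all genes. Among 21 other lysosomal enzymes tested in Ls174 cells, 7 fell, among them *GGH* (-0.70 ± 0.21, adjusted p = 0.195), a hydrolase of folate polyglutamates, and the phospholipase gene *PLA2G15* (-1.29 ± 0.43, adjusted p = 0.246). In HepG2 cells 3 of 22 fell, among them *SUMF1* (-1.60 ± 0.44, adjusted p = 0.0772), which activates all sulfatases, and *MAN2B2* (-1.13 ± 0.39, adjusted p = 0.138), while *CTSL* rose from 52.5 ± 16.7 to 125 ± 36.2 CPM (1.27 ± 0.36, adjusted p = 0.085).

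Of the other membrane proteins, 5 of 28 fell in Ls174 cells, led by the chloride-proton exchanger gene *CLCN7* (-1.51 ± 0.28, adjusted p = 0.0468), *LAPTM4B* (-0.67 ± 0.18, adjusted p = 0.141) and *LMBRD1* (-1.09 ± 0.39, adjusted p = 0.284), which serves cobalamin export. In HepG2 cells 2 of 25 fell, the channel genes *TPCN1* (-0.95 ± 0.36, adjusted p = 0.171) and *TPCN2* (-1.32 ± 0.52, adjusted p = 0.183). Subunits of the V-ATPase, the proton pump that acidifies lysosomes, were called in both directions. Beside them, 7.85% of all genes fell and 4.11% rose in Ls174 cells, and 10.9% fell and 11.3% rose in HepG2 cells. In Ls174 cells *ATP6AP1* (-0.92 ± 0.22, adjusted p = 0.105) and *ATP6V0A1* (-0.91 ± 0.22, adjusted p = 0.109) were among 3 of 18 that fell, and *ATP6V1D* rose (0.66 ± 0.27, adjusted p = 0.342). In HepG2 cells 2 of 18 rose, *ATP6V1D* (0.75 ± 0.29, adjusted p = 0.169) and *ATP6V1E1* (0.95 ± 0.37, adjusted p = 0.177), and 2 fell, with *TCIRG1* first (-1.38 ± 0.53, adjusted p = 0.174).

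In the list of mannose 6-phosphate tagging and sorting, 3 of 33 genes fell in Ls174 cells. These were the sorting receptor genes *SORT1*, from 51.8 ± 12.9 to 16.5 ± 1.94 CPM (-1.66 ± 0.26, adjusted p = 0.0344), and *SORL1*, from 23.7 ± 8.58 to 4.73 ± 0.15 CPM (-2.31 ± 0.37, adjusted p = 0.0344), and *GNPTAB* (-1.83 ± 0.44, adjusted p = 0.107), which encodes the transferase that starts the tag. In HepG2 cells 4 of 33 fell, with the lowest p for *AP1S1* (-1.16 ± 0.37, adjusted p = 0.114), *AP1M2* (-2.01 ± 0.68, adjusted p = 0.127) and *VPS33A* (-1.01 ± 0.41, adjusted p = 0.189), and 1 rose. Over all genes 7.85% fell in Ls174 and 10.9% in HepG2 cells, so the share of this list called lower was close to that in each line.

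Among TFEB-related factors and the mTORC1 regulators at the lysosomal surface, 6 of 19 genes rose in HepG2 cells and 0 fell, beside 11.3% and 10.9% of all genes. In Ls174 cells 0 of 20 were called by edgeR in either direction and 0 had an unadjusted p under 0.05, while 4.11% of all genes rose and 7.85% fell. Without HepG2 HME 2, 4 of the 6 genes that rose were still called, beside 8.34% of all genes called higher. *FLCN* and *FNIP1* were called in every fit without 1 HepG2 library, but *TFE3* was not called without HepG2 control 3 or HME 3. In HepG2 cells *MLST8* was called lower without control 3 and *LAMTOR1* without HME 1. In Ls174 cells *FNIP1* was called lower without control 1 and *TSC1* without control 3. *FLCN* (1.23 ± 0.30, adjusted p = 0.0547) and its partner *FNIP1* (1.14 ± 0.38, adjusted p = 0.124) rose, and so did the transcription factor gene *TFE3*, from 26.4 ± 8.26 to 51.3 ± 2.98 CPM (0.96 ± 0.34, adjusted p = 0.144). *TFEB*, named for its role, was at 29.0 ± 20.6 CPM without HME and 24.9 ± 4.4 CPM with it in HepG2 cells and was not called in either line.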

How the data were processed

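RNA of the 12 samples was made into QuantSeq 3′ mRNA libraries and sequenced on an Ion Proton instrument. The authors ran FASTQC on the reads, used default Hisat2 settings for alignment to hg19 (GRCh37) and processed the alignments in metaseqR2. The submitters' processing notes also name Bowtie2 and Trimmomatic, without a role. The deposited tables hold whole-number counts per 3′ region, without normalization. The treatment of strand and of multiply aligned reads is not given in the sources used here.

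Counts of the 144910 regions were summed per gene ID. edgeR 4.0.16 in R 4.3.3 (TMM, filterByExpr by group, quasi-likelihood F test, two-sided) was fitted to each line alone, to the untreated libraries and to all 12 libraries for the interaction, with Benjamini-Hochberg adjustment over all tested genes and SE = |log2 fold change| divided by the square root of F. For HME within a line, a log2 fold change beyond 0.58 with p under 0.05 was called. Between the untreated lines the p had to be under 0.05 after adjustment, with the same fold limit. In the interaction an unadjusted p under 0.05 was counted, without a fold limit. Levels are CPM with TMM factors of all 12 libraries, as mean ± SD. The fits were tested on simulated data with changes larger than any tested lysosomal gene showed with HME and with no deviating library. That run cannot tell how the fits perform on smaller changes. p values measure the spread between 3 cultures per group, of which the smallest exact permutation p for a single value is 0.1.

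The 37 genes and all gene lists were chosen with earlier results of these data known. Every member is accounted for. Values in every library are given for called members (the 8 of lowest p in each line) and, in the untreated lines, up to 5 called genes per direction, and from other lists the 3 called genes of lowest p in each line are named, except 1 gene that is not reported here. No pair of replicates was a duplicate (chi-square per degree of freedom 4.44 to 54.1). Alternatives were DESeq2 1.42.0, other scalings, filters and fold limits, single regions, a binomial test on summed counts, 1 fit of all libraries, a replicate block and leaving out each library; summing by gene name, leaving out both deviating HepG2 libraries and leaving out libraries for the other lists were chosen after seeing the data.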

Additional observations from a re-analysis of the deposited data

Results flagged for a closer look

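*SCARB2* and *PSAP* were the genes whose 3 HME libraries all lay above the 3 controls in HepG2 cells and all below them in Ls174 cells. For *SCARB2* the log2 fold change in HepG2 minus that in Ls174 cells was 1.53 ± 0.52 (edgeR interaction, adjusted p = 0.217). For *PSAP* it was 1.26 ± 0.38 (adjusted p = 0.163). In Ls174 cells the call of *PSAP* was kept in 2 of 6 fits that left out 1 library, and that of *SCARB2* in all 6. In HepG2 cells edgeR called neither gene in the fit of that line's 6 libraries, while DESeq2 and 1 edgeR fit of all 12 libraries called *PSAP* higher, and without HepG2 control 2, where *SCARB2* was at 24.1 CPM against 83.4 and 71.5 CPM in the other controls, its change was 0.34 ± 0.23 in place of 0.67 ± 0.41.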

How the results depend on the processing

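In HepG2 cells 3 genes were called higher, 1 lower and 0 at an adjusted p under 0.05. One fit of all 12 libraries gave 5 higher and 1 adjusted (11.1% and 6.19% of all genes), and DESeq2 gave 1 adjusted (9.11%). Without a filter on low counts 2 were lower and 2 adjusted (7.9% and 5.75%), and omission of both deviating libraries gave 1 adjusted (6.03%). The binomial test on summed counts, which has no term for replicates, gave 7 lower and 25 adjusted, when 30.7% of all genes were lower and 66.6% adjusted. In Ls174 cells 16 genes were called lower and 2 adjusted. A fold limit of 1 gave 7 lower (4.59% of all genes), DESeq2 and no filter each 8 adjusted (3.83% and 2.68%), and the binomial test 26 adjusted (48.8%). Untreated, 5 genes were higher in HepG2 and 1 in Ls174. DESeq2 and no filter gave 11 higher in HepG2 (17.3% and 10.3% of all genes), 1 fit of all libraries 13 and 3 (19.6% and 15.9%), and a minimum of 10 counts in every library, which removes *CTSZ*, 0 in Ls174. Of the interaction, 11 genes passed unadjusted and 0 adjusted, with 1 adjusted by DESeq2. Where no cause is named, the cause was not tested.

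With 1 library left out, 2 to 4 genes were higher in HepG2, 0 to 2 lower and 0 to 1 adjusted. Of all genes, 8.33% to 14.1% were higher there, 6.14% to 12.3% lower and 0.793% to 7.74% adjusted. In Ls174 cells 9 to 14 were lower, against 4.71% to 9.23% of all genes. There 11 were adjusted without control 1 (8.39% of all genes) and 0 in each of the other 5 fits (0% to 0.0861%). Between the lines 3 to 9 were higher in HepG2, against 11.2% to 15.4% of all genes. In the interaction 6 to 13 passed, against 5.76% to 8.83% of all genes higher in HepG2. No called gene changed direction under any alternative run.

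No sign of pairing by replicate number was seen, since correlations of same-numbered deviations lay between -0.17 and 0.09 and not every library correlated best with its own number. Deviations within groups of 3 libraries cannot exclude such pairing. With the replicate block 12 genes fell in Ls174 cells, against 6.11% of all genes. There 0 passed an adjusted p, as did 0 of all genes tested. In the interaction 7 passed, all of them higher in HepG2, against 5.81% of all genes.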
